A study of Mus musculus with 2 samples.

Results

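The 10 genes described here encode the constant parts of mouse antibodies and the J chain that joins antibodies into polymers. They are Ighm, Ighd, Ighg1, Ighg2b, Ighg2c, Ighg3, Igha and Ighe for the heavy chain, Igkc for the kappa light chain, and Jchain. They were taken by symbol from the 32285 genes listed in the files, and all 10 were found. Single-cell RNA sequencing (scRNA-seq) was read in 2 optic nerve libraries of Nf1 OPG mice, named C-ON (titled control) and FMC_new (titled FMC new). Both carry the genotype NF1-OPG, that is Nf1 flox/mut with GFAP-Cre according to the study's methods: a germline mutant allele, with the other allele lost in the GFAP lineage, as a model of optic glioma. The mice were 12 weeks old, and nerves of 10 mice were pooled according to the labels. Meningeal duras of the same mice were collected too, and it is not stated whether each library was a pool of its own or whether dura cells entered one. What distinguishes the control from the FMC library is not stated, so they were treated as 2 libraries of 1 group, no p-value was computed, and each value is given for C-ON first and FMC_new second. Intervals are exact 95% intervals and cover counting error only.

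A B cell first makes IgM and IgD from the same rearranged heavy chain gene. During class switching, the DNA is cut so that the same variable region is joined to a downstream constant gene, and the cell then makes IgG, IgE or IgA. Plasma cells are the final stage of this lineage and secrete antibody in bulk, with kappa or lambda light chains. J chain links IgM and IgA into polymers, and the polymeric immunoglobulin receptor carries these across epithelia. Because plasma cells hold so much antibody RNA, broken cells release it into the suspension, and it is then counted in droplets that hold other cells.

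The 8 heavy chain genes lie on the minus strand of chromosome 12 within 167901 bases (GRCm38, 113254830 to 113422730), in the order Ighm, Ighd, Ighg3, Ighg1, Ighg2b, Ighg2c, Ighe, Igha along the direction of transcription. Igkc lies on chromosome 6 (70726435 to 70726966, plus strand) and Jchain on chromosome 5 (88519809 to 88527891, minus strand). The first 60 bases of the first constant exon (CH1) are shown for 6 heavy chain genes, since a subclass can be counted only where its sequence differs from the others. Sequences are 5′ to 3′ on the coding strand of GRCm38. Capitals in the IgG genes mark bases that differ from Ighg2c, which occurs in C57BL/6 mice.
Ighg2c (chr12:113288873-113288932): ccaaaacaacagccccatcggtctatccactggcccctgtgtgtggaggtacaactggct
Ighg2b (chr12:113307874-113307933): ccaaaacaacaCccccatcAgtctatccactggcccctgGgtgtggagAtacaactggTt
Ighg1 (chr12:113330464-113330523): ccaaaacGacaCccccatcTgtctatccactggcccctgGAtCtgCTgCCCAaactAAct
Ighg3 (chr12:113361173-113361232): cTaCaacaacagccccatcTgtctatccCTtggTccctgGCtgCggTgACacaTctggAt
Igha (chr12:113260177-113260236): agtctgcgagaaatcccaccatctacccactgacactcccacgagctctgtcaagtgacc
Ighm (chr12:113422671-113422730): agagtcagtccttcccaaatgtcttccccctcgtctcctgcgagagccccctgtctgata
Over the whole CH1 exon, Ighg2b and Ighg2c were identical at 87.6% of aligned bases, and their transcripts shared a run of 78 bases. Ighg3 was identical to Ighg2b and Ighg2c at 78.7% and 78.4%. Igha and Ighm were identical to each other at 50.6%.

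The files held 10845 and 21341 barcodes with 85101211 and 129113325 UMIs (unique molecular identifiers, which count captured RNA molecules). Cells with 500 to 5000 genes, 500 to 20000 UMIs and at most 5% mitochondrial UMIs were kept, which left 8834 and 16818 cells with medians of 6810.5 and 4676 UMIs. The libraries had 296 barcode sequences in common, 188 of them among kept cells, and whether any held the same cell was not tested. Clusters were found without the immunoglobulin genes and Jchain, and 33 of 40 were named from fixed markers. Of these, 3 clusters were plasma cell-like and 1 was B cell-like. In the 2 larger plasma cell-like clusters, all 8 plasma cell markers were found, whereas the third was shallow, held 4 of the 8, and had Cd209a, a dendritic cell gene, among its leading genes. Plasma cell-like cells numbered 401 (4.54%, 4.11 to 4.99%) and 1096 (6.52%, 6.15 to 6.90%), with medians of 10744 and 11476.5 UMIs. B cell-like cells numbered 47 (0.532%, 0.391 to 0.707%) and 293 (1.74%, 1.55 to 1.95%). Oligodendrocyte-like cells, the main glia of optic nerve, numbered 5742 and 2261, and 1070 cells of FMC_new were pituitary endocrine cell-like, a type that the labelled tissue does not contain. Markers of that type were also among the leading genes of clusters without that name. These were an unnamed cluster with Pomc and Tbx19 (599 cells of FMC_new) and an unnamed cluster with Tshb and Cga (19 and 86 cells). A neuron-like cluster with Pomc (143 cells of FMC_new) was a further one.

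The 10 genes gave 422220 and 1055853 UMIs in kept cells, and plasma cell-like cells held 92.9% and 82.5% of them. In these cells the 10 genes took 9.19% and 7.43% of all UMIs, and all immunoglobulin genes with their variable segments took 57.1% and 63.8%. The median plasma cell-like cell had 879 and 709.5 UMIs of the 10 genes. Igkc, the kappa constant gene, had medians of 195 (quartiles 77 to 320) and 90.5 (35 to 183.25) UMIs per cell and was found in 100% and 99.3% of plasma cell-like cells. Jchain had medians of 377 (176 to 763) and 308 (97.25 to 680.5) UMIs per cell. These are UMI counts not divided by gene length, so they rank cells and not genes. Igha, the IgA gene, had medians of 262.5 and 227 UMIs in the cells called IgA and of 1 and 1 in those called IgG. Ighe, the IgE gene, gave 3 and 20 UMIs in all barcodes, with at most 2 in any plasma cell-like cell.

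**Figure D1:**
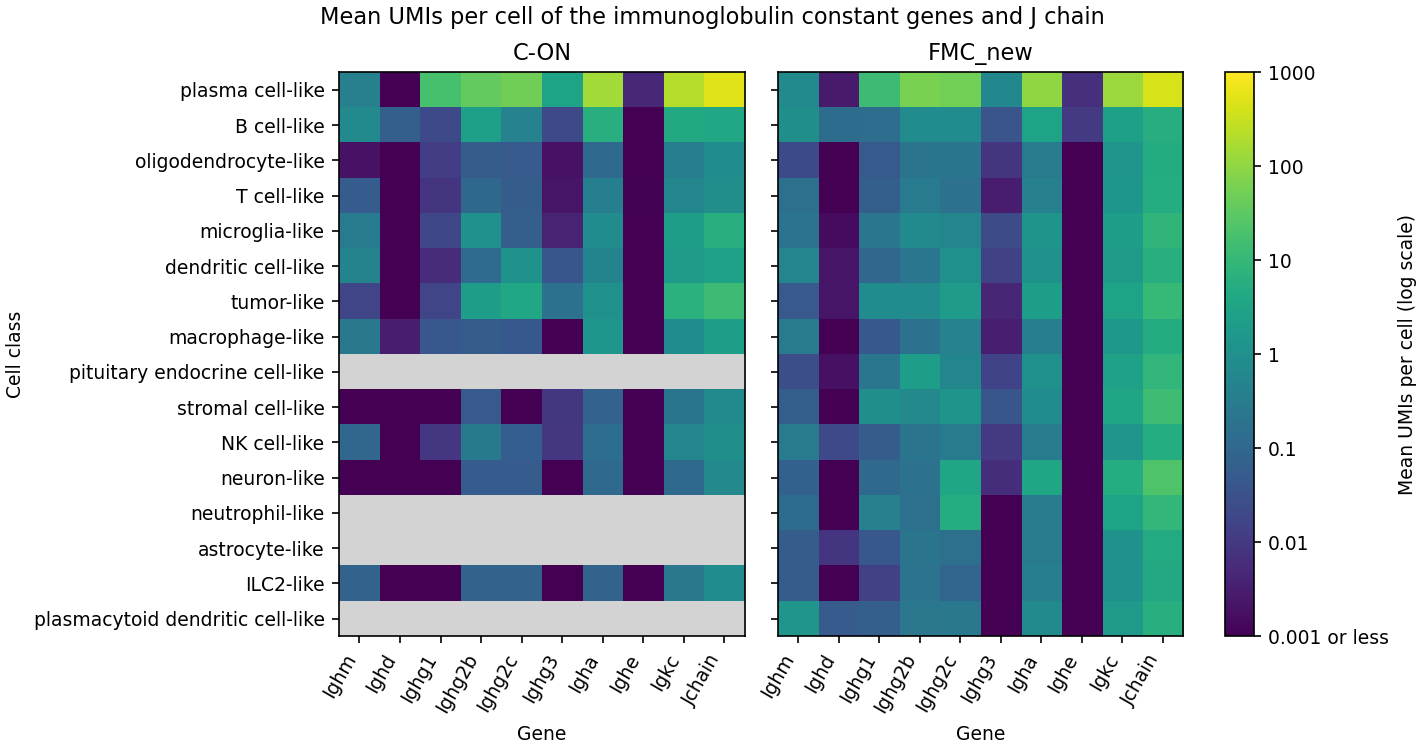
Mean UMIs per cell (colour, log scale) of the 10 genes in each cell class of C-ON (left) and FMC_new (right), with classes of fewer than 20 cells in grey. The top row, plasma cell-like cells, is highest for Igkc, Jchain, Igha and the IgG genes, whereas Ighm is higher in the B cell-like row (means of 0.745 and 0.983 UMIs) than in the plasma cell-like row (0.411 and 0.734).

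Plasma cell-like cells were nearly all IgA or IgG. A cell was given a dominant isotype when it had at least 10 heavy chain constant UMIs and over 50% of them belonged to 1 class, which held for 369 of 401 and 1029 of 1096 cells. IgA was dominant in 206 cells (55.8%, 50.6 to 61.0%) in C-ON and 451 cells (43.8%, 40.8 to 46.9%) in FMC_new. IgG was dominant in 163 (44.2%, 39.0 to 49.4%) and 577 (56.1%, 53.0 to 59.1%). By these shares, IgA was the more frequent isotype in C-ON and IgG in FMC_new. The intervals of the libraries did not overlap for either isotype. They treat the cells of a library as independent, which was not tested. Cells of a library are not replicates, so no difference beyond these libraries can be drawn from the intervals. IgM was dominant in 0 and 1 cells, and IgD and IgE in none, which leaves an upper limit of 0.995% in C-ON and of 0.358% in FMC_new for a class with no cell. In the median cell, 99.7% and 99.5% of heavy chain UMIs belonged to the dominant isotype. A further isotype with at least 20% of the heavy chain UMIs was seen in 16 of 369 (4.34%) and 34 of 1029 (3.30%) cells.

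**Figure D2:**
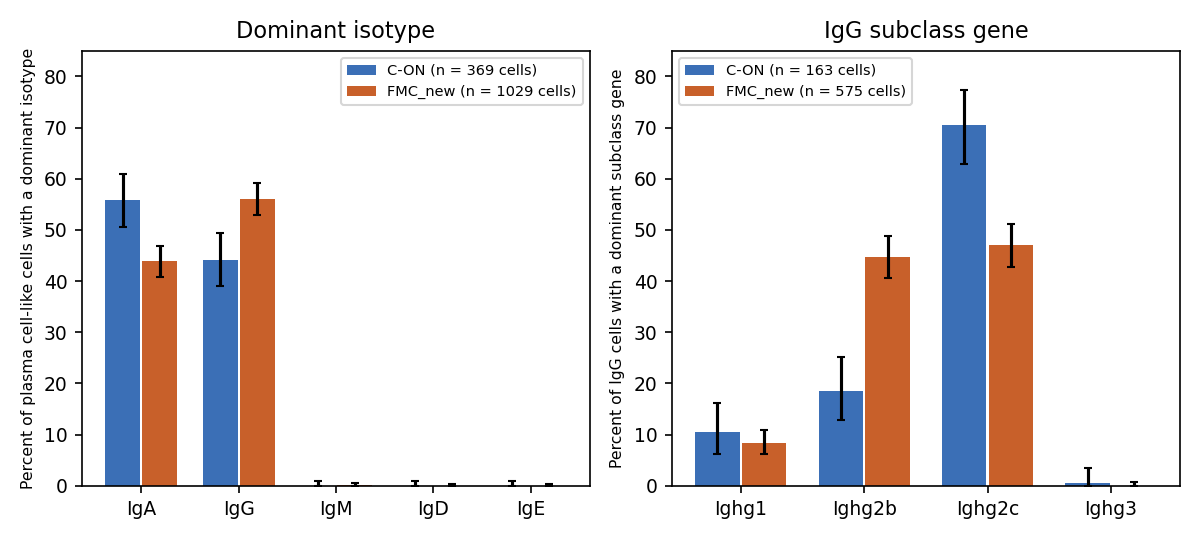
Percent of plasma cell-like cells by dominant isotype (left) and of IgG cells by dominant subclass gene (right) in each library, with exact 95% intervals as error bars. IgA and IgG share nearly all cells, with IgA at 55.8% in C-ON and at 43.8% in FMC_new, and Ighg2c and Ighg2b hold most IgG cells.

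Each plasma cell-like cluster held both isotypes, in differing shares. In the largest plasma cell-like cluster IgA was dominant in 57.8% of 315 and 44.7% of 701 cells, and in the next in 46.0% of 50 and 38.8% of 240 cells. The shallow cluster gave an isotype to only 4 and 88 cells, of which 1 and 45 were IgA.

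Among IgG cells, Ighg2c and Ighg2b led. Ighg2c, the C57BL/6 form of IgG2a, was dominant in 115 of 163 cells (70.6%, 62.9 to 77.4%) and 270 of 575 cells (47.0%, 42.8 to 51.1%). Ighg2b was dominant in 30 cells (18.4%, 12.8 to 25.2%) and 257 cells (44.7%, 40.6 to 48.9%). The intervals of the libraries did not overlap for either gene, but they treat cells as independent, which was not tested. Ighg1 was dominant in 17 (10.4%, 6.19 to 16.2%) and 48 (8.35%, 6.22 to 10.9%) cells, with overlapping intervals, and Ighg3 in 1 and 0 cells. A cell of a subclass had a median of 152 and 162 UMIs of Ighg2c, of 406.5 and 237 of Ighg2b, or of 421 and 219 of Ighg1.

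UMIs of other subclasses were found beside the dominant gene. Ighg2c cells in C-ON had medians of 9 Ighg2b and 7 Ighg3 UMIs, and 98.3% and 94.8% of them had a UMI of these genes. In FMC_new the same cells had medians of 1 Ighg2b and 0 Ighg3 UMIs, with a UMI in 53.7% and 39.3%. Ighg2b cells, in turn, had a median of 1 and 0 Ighg2c UMIs and 0 of Ighg3 in each library, and Ighg1 cells had medians of 0 for all 3 other IgG genes. An Ighg2c UMI was found in 73.3% and 49.4% of Ighg2b cells and in 47.1% and 31.3% of Ighg1 cells. In C-ON, Ighg2b in Ighg2c cells was thus more frequent than Ighg2c in Ighg2b cells. In FMC_new the intervals of these shares overlapped (47.6 to 59.8% and 43.1 to 55.7%). Low counts of Ighg2b and Ighg3 next to Ighg2c are uncertain as to their gene, and the parts of shared sequence, free RNA and doublets in them were not tested. Of the Ighg3 UMIs in kept cells, 91.6% and 79.1% lay in plasma cell-like cells, although Ighg3 was dominant in a single cell.

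Jchain, whose protein joins IgA into polymers, had higher medians in IgA than in IgG cells. IgA cells had medians of 628 (quartiles 285.5 to 1011.5) and 626 (298.5 to 1050) Jchain UMIs, and IgG cells had 305 (178.5 to 527.5) and 213 (82 to 412). The middle ranges of IgA and IgG cells overlapped, so Jchain did not sort the isotypes cell by cell. For each heavy chain constant UMI, IgA cells had 2.39 and 2.89 Jchain UMIs and IgG cells had 1.42 and 1.19. Igkc did not keep 1 order in the libraries, as its median was 168 in IgA and 267 in IgG cells of C-ON, and 106 and 93 in FMC_new. IgG cells, whose antibody is secreted as a monomer, had a Jchain UMI in 100% of cells in both libraries. The median UMIs per cell were 10679 for IgA and 12297 for the other cells of C-ON, while in FMC_new they were 12547 and 11780.5, and the part of depth in the difference was not tested.

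Variable segments are read beside the constant genes of the same transcript. For each heavy chain constant UMI there were 4.76 and 8.54 UMIs of Ighv segments, and for each Igkc UMI there were 17.5 and 32.2 UMIs of Igkv segments. The libraries were made with a kit that reads from the 5′ end of the transcript, where the variable region lies. Igkc, lower in FMC_new, is the denominator of the ratio of Igkv to Igkc UMIs, so the higher ratio there restates the lower Igkc in part. The part of read position in either was not tested.

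The kappa chain was dominant in nearly all plasma cell-like cells. With at least 10 UMIs of Igkc and the lambda constant genes Iglc1, Iglc2 and Iglc3 together, 385 and 1009 cells could be called, and lambda was dominant in 0 of 385 (up to 0.954%) and 29 of 1009 (2.87%, 1.93 to 4.10%). In FMC_new, 24 of 430 IgA cells (5.58%, 3.61 to 8.19%) and 3 of 556 IgG cells (0.540%, 0.111 to 1.57%) were lambda. Lambda UMIs were not confined to lambda cells, because kappa cells had a median of 25 and 11 lambda UMIs, 11.7% and 11.6% of their light chain UMIs. In the 29 lambda cells the median lambda share was 62.5%, so the call was less clean than that of the heavy chain, and at a threshold of over 80% the lambda share over both libraries was 1.03% in place of 2.08%.

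The variable gene that went with each constant gene was read where a single Ighv gene held over 50% of at least 10 Ighv UMIs, which was so in 138 and 421 IgA cells and 125 and 552 IgG cells. In C-ON, IgA cells most often carried Ighv8-12 (29 cells, 21.0%), Ighv5-6 (21 cells) and Ighv5-4 (20 cells). IgG cells there most often carried Ighv1-81 (40 of 125, 32.0%, 23.9 to 40.9%), Ighv1-72 (24 cells) and Ighv2-9 (12 cells). In FMC_new, IgA cells most often carried Ighv1-64 (58 cells, 13.8%), Ighv1-81 (52 cells) and Ighv1-26 (49 cells), and IgG cells Ighv1-81 (78 cells, 14.1%), Ighv6-3 (75 cells) and Ighv8-12 (51 cells). In C-ON, 18 and 17 Ighv genes were seen in these IgA and IgG cells, and in FMC_new 48 and 45, from the larger number of cells given above. Clones cannot be read from these counts, since a V gene is shared by many clones and closely related V genes share reads.

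B cell-like cells had few constant UMIs. Their median was 10 and 12 UMIs of the 10 genes, against 879 and 709.5 in plasma cell-like cells and 1 and 6 in oligodendrocyte-like cells. Ighm, the IgM gene that unswitched B cells carry, had a UMI in 8 of 47 (17.0%, 7.65 to 30.8%) and 87 of 293 (29.7%, 24.5 to 35.3%) B cell-like cells, against 0.192% and 1.64% of oligodendrocyte-like cells, which were deeper (medians of 7758.5 and 7446 UMIs against 4460 and 4280). It was not particular to B cell-like cells, since dendritic cell-like cells had it in 33.0% and 35.6%. Ighd, which marks mature naive B cells, had a UMI in 3 of 47 (6.38%, 1.34 to 17.5%) and 24 of 293 (8.19%, 5.32 to 11.9%) B cell-like cells, and in 0 of 5742 and 1 of 2261 oligodendrocyte-like cells. Nearly all Ighd cells also had Ighm, namely 3 of 3 and 21 of 24.

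Igha was found in most B cell-like cells, with a UMI in 63.8% (48.5 to 77.3%) and 64.2% (58.4 to 69.7%) of them, against 8.41% and 22.9% of oligodendrocyte-like cells and 8.79% and 26.7% of T cell-like cells. At 1000 UMIs per cell, to which cells were thinned, the shares were 38.3% and 32.5% in B cell-like and 1.70% and 4.98% in oligodendrocyte-like cells. Of 35 and 215 B cell-like cells with at least 3 heavy chain UMIs, IgA held over 50% in 21 and 87, IgG in 8 and 57, IgM in 3 and 44, and IgD in 0 and 2. With so few UMIs per cell, free RNA can set the call, and its part was not tested. Jchain did not stand above the unrelated cells in the same way, with a UMI in 51.1% and 97.6% of B cell-like cells and 42.3% and 97.0% of oligodendrocyte-like cells.

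Ighm did not follow the other constant genes across cell classes. A UMI of Ighm was found in 33.0% (28.1 to 38.3%) and 35.6% (33.1 to 38.2%) of dendritic cell-like cells and in 57.1% of the 77 plasmacytoid dendritic cell-like cells of FMC_new. Among the dendritic cell-like clusters, that led by Il12b and Ccr7 had it in 3.33% of 30 and 11.4% of 79 cells. The others had it in 32.3% and 39.8%, and in 42.6% and 32.7%. Ighm was found in 18.3% and 22.2% of macrophage-like cells, 19.8% and 16.2% of microglia-like cells, 9.57% and 22.6% of NK cell-like cells, and 4.34% and 11.5% of T cell-like cells. Plasma cell-like cells stood at 8.73% and 16.9%, within the range of these immune classes. ILC2-like cells were lower, at 4.17% of 24 and 5.88% of 68 cells. Among glial, tumor-like and stromal classes, the shares were 0.192% and 1.64% in oligodendrocyte-like, 1.38% and 3.82% in tumor-like, and 0% and 5.30% in stromal cell-like cells. Astrocyte-like cells of FMC_new stood at 5.04%. Neuron-like cells had Ighm in 0 of 35 and 7.36% of cells, at medians of 8045 and 7557 UMIs. Of the 163 in FMC_new, 143 lay in a cluster with no C-ON cell, where Ighm was found in 7.69%. That cluster held 3 of 8 neuron markers and had Pcsk2 and Pomc, a marker of pituitary endocrine cells, among its leading genes. The neuron-like cluster seen in both libraries had Ighm in 0 of 35 and 5% of 20 cells. Dendritic cell-like cells had medians of 7765 and 7165 UMIs. The part of depth in the order of the classes was not tested.

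The ratio of Ighm to Igkc also differed between classes. There were 25.8 and 28.4 Ighm UMIs for every 100 Igkc UMIs in dendritic cell-like cells, 29.8 and 18.7 in macrophage-like cells, and 77.9 in plasmacytoid dendritic cell-like cells of FMC_new. The ratio was 0.533 and 1.70 in oligodendrocyte-like cells and 0.187 and 0.594 in plasma cell-like cells. Without the cells that had 10 or more heavy chain UMIs, Ighm was still found in 33.4% and 35.3% of dendritic cell-like cells. Most cells with Ighm had a single UMI (69.6% and 65.3% of dendritic cell-like cells with Ighm), and the highest count in a dendritic cell-like cell was 6, so the level was low. The part of free RNA in these values was not tested.

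**Figure D3:**
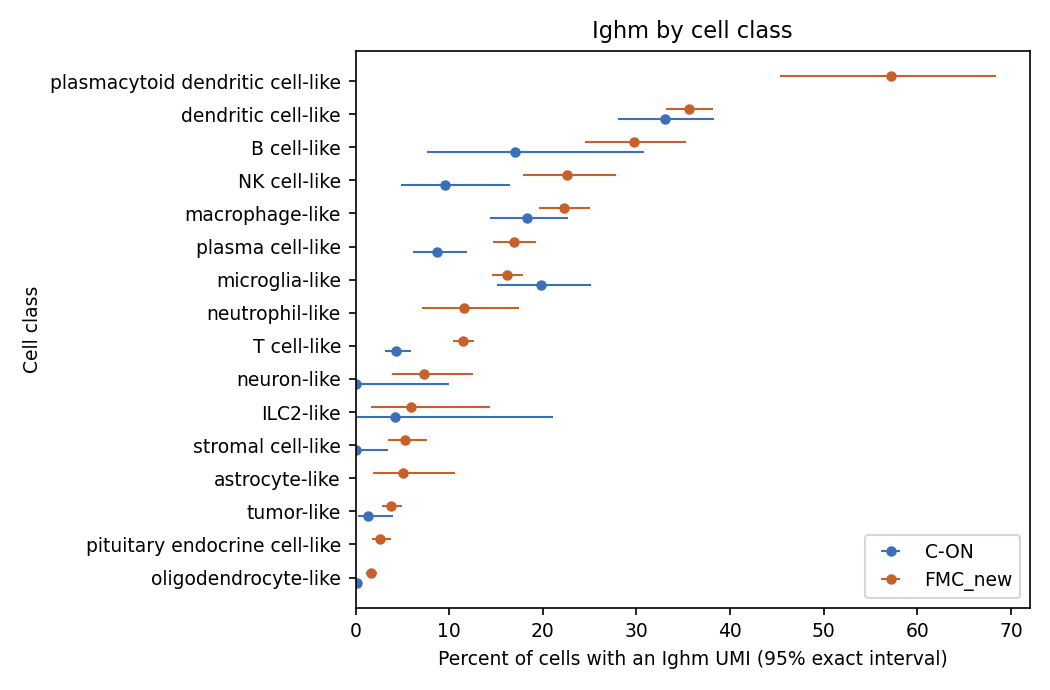
Percent of cells with at least 1 Ighm UMI in each cell class (points) with exact 95% intervals (lines), for C-ON and FMC_new. Dendritic, macrophage-like and NK cell-like classes lie at or above plasma cell-like cells in each library, and oligodendrocyte-like, tumor-like and pituitary endocrine cell-like cells lie lowest in FMC_new.

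Over the clusters with at least 20 cells (31 in C-ON and 40 in FMC_new), the genes most like each member were found by Pearson's r of log2(CPM + 1), ranked over 16393 genes by the lower r of the 2 libraries. Clusters of 1 library share its free RNA and depth, so these r values are descriptions. Igkc and Jchain were most like Mzb1 (lower r 0.94 and 0.91), a chaperone of antibody assembly, Slpi (0.91 and 0.92), Derl3 (0.89 and 0.90), which acts in the disposal of misfolded proteins, Gm30211 and Cd79a, and were like each other (0.98). Igha was most like Mzb1 (0.88), 2010309G21Rik, Cd79a, Gm30211 and Derl3. Ighm had a different list, with Glipr1, Hcls1, Pycard, Fermt3 and Cd52 (0.83 to 0.82), of which Hcls1, Fermt3 and Cd52 are broadly expressed in leukocytes, and its lower r with Igkc was 0.38. For Ighd the list was Cdh17, Fcmr, Pax5, Fcrl5 and Nxpe2, among which Pax5 is the B cell identity factor and Fcmr an IgM receptor, with 0.71 for Cdh17 and 0.69 for Fcmr.

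In unrelated cells, the median count of the 10 genes per cell was low, alike among the classes of a library and different between the libraries. In C-ON, the median was 1 UMI of the 10 genes per cell in 9 of 10 unrelated classes and 2 in dendritic cell-like cells, over class depths of 2847.5 to 8045 UMIs. In FMC_new the medians ran from 6 to 9 in 14 classes, over depths of 2726 to 7557 UMIs. Jchain had a UMI in 42.3% of oligodendrocyte-like cells of C-ON and 97.0% of those of FMC_new. Plasma cell-like cells were 4.54% and 6.52% of kept cells, and their part in this difference was not tested. Oligodendrocyte-like cells thinned to 1000 UMIs had means of 0.240 and 1.44 UMIs of the 10 genes, the higher value in FMC_new. Unlike the medians, the class means at this depth ran from 0.233 (stromal cell-like) to 3.81 (tumor-like) in C-ON. In FMC_new they ran from 1.44 (oligodendrocyte-like) to 7.12 (stromal cell-like).

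The mix of genes in oligodendrocyte-like cells was set beside that of plasma cell-like cells of the same library. Jchain was 57.1% and 70.0% of the UMIs of the 10 genes in oligodendrocyte-like cells, and 51.7% and 55.6% in plasma cell-like cells. Igkc was 25.8% and 18.8% against 22.4% and 15.5%, and Igha 8.11% and 4.14% against 14.8% and 12.5%. Igha was thus the smaller share in oligodendrocyte-like cells of both libraries. The summed Igha share was not smaller in every unrelated class, since in C-ON it was 18.5% in T cell-like and 29.3% in macrophage-like cells. These 2 shares are of summed UMIs, in which a few cells weigh heavily. Over 50 UMIs of the 10 genes were found in 5 of 899 T cell-like and 1 of 356 macrophage-like cells of C-ON. Without that 1 cell, the macrophage-like mean was 1.56 in place of 4.76 UMIs of the 10 genes. The Igha share of the remaining cells was not tested.

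**Figure D4:**
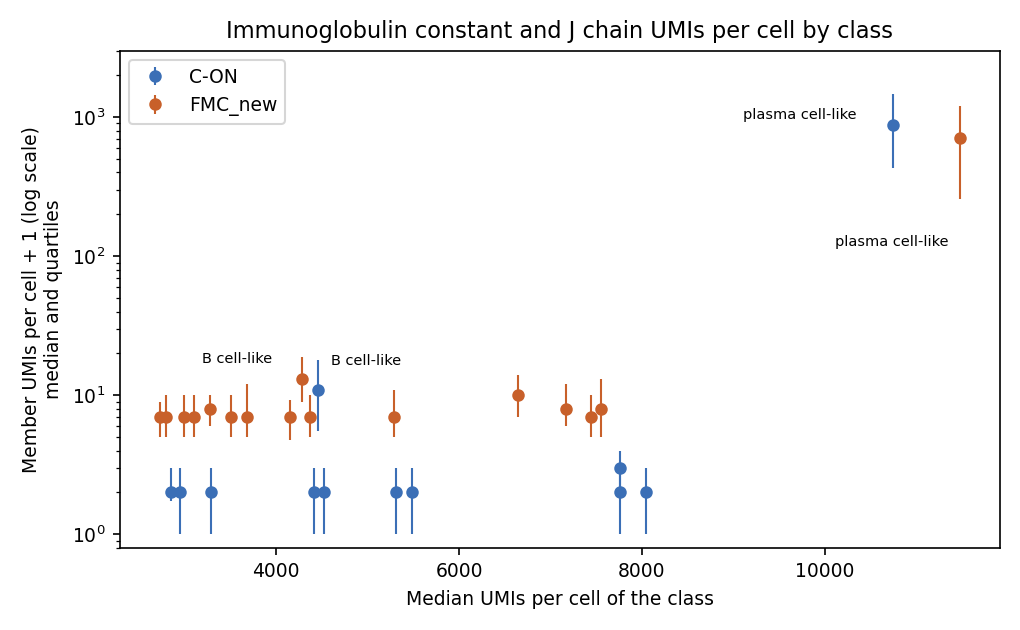
UMIs of the 10 genes per cell, plus 1 (log axis, median with quartiles), against the median UMIs per cell of each class, for C-ON and FMC_new. Unrelated classes lie at medians of 1 or 2 UMIs in C-ON and 6 to 9 in FMC_new at every depth, and plasma cell-like cells lie at 879 and 709.5.

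A few cells in unrelated classes held many more. At least 10 heavy chain UMIs were found in 48 of 8120 cells (0.591%) of C-ON and 383 of 13549 cells (2.83%) of FMC_new. They held 55.0% and 41.3% of all UMIs of the 10 genes in unrelated cells. In 89.6% and 89.0% of them over 80% of the heavy chain UMIs were of 1 isotype, and 29 and 299 had a single dominant Ighv gene. IgG was dominant in 30 and 249 and IgA in 18 and 130 of these cells. Their median was 3 of the 8 plasma cell markers. In C-ON the share of such cells was highest in the tumor-like class, at 7.37%. Of these 16 cells, 15 lay in 1 of the 2 tumor-like clusters (28.8% of its 52 cells), and in FMC_new the same cluster held 11.3% against 0.470% in the other. In FMC_new the share was 14.1% in neuron-like, 10.2% in stromal cell-like and 7.48% in pituitary endocrine cell-like cells, against 0.174% and 0.310% in oligodendrocyte-like cells. The neuron-like share lay in the cluster with Pomc among its leading genes (23 of 143 cells), and the other neuron-like cluster had 0 of 20. In C-ON such cells were 0 of 35 neuron-like and 0 of 104 stromal cell-like cells. No doublet caller was run, and whether these barcodes held a plasma cell together with another cell was not tested. Means of single heavy chain genes in the unrelated classes can thus lie in few cells, as for Ighg2c in neutrophil-like cells of FMC_new, where 828 UMIs lay in 21 of 164 cells. Of these 164 cells, only 2 had at least 10 heavy chain UMIs.

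IgA cells were also compared with the other plasma cell-like cells in genes outside the immunoglobulin loci, and Tnfrsf17, Ccr10 and Txndc5 stood higher and Ly6c2 lower in IgA cells of both libraries. Summed counts of 206 and 451 IgA cells were compared with those of 163 and 578 other cells, all IgG except the single IgM cell. Of 7782 genes with at least 20 UMIs in the arms together, 39 (0.501%) were at least 2-fold higher in IgA cells in both libraries and 28 (0.36%) at least 2-fold lower. Over all 7782 genes the median log2 fold was 0.08 and -0.01. No test was made, because the cells of a library are not replicates.

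The 10 genes furthest past the limit among the 39 included 3 receptors. Tnfrsf17, the receptor BCMA that binds the survival factors APRIL and BAFF, was 6.03-fold (3.55 to 10.9) and 6.53-fold (5.06 to 8.54) higher in IgA cells, and was found in 35.0% and 46.1% of IgA against 7.36% and 9.34% of other cells. Btla, an inhibitory receptor of lymphocytes, was 8.37-fold (4.72 to 16.2) and 5.22-fold (4.16 to 6.59) higher. Ccr10, the chemokine receptor that draws IgA plasma cells to mucosal tissue, was 4.31-fold (3.06 to 6.22) and 3.66-fold (3.11 to 4.32) higher. Txndc5, a disulfide isomerase of the endoplasmic reticulum, had the most UMIs of the 10 and was 4.74-fold (4.19 to 5.38) and 3.36-fold (3.17 to 3.57) higher. Nrg2, a neuregulin, was 8.70-fold and 3.15-fold higher, Hdac9, a histone deacetylase, 6.67-fold and 3.09-fold, Ptpn6, the phosphatase SHP-1, 4.49-fold and 2.86-fold, Samsn1, an adaptor protein, 4.64-fold and 2.73-fold, and Serpina3f, a protease inhibitor, 3.54-fold and 3.87-fold. Ifitm1, an interferon-induced membrane protein, had folds of 19.5 (3.15 to 803) and 7.32 (3.26 to 19.3), but in C-ON it rested on 22 UMIs in 1.94% of IgA cells against 1 UMI.

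Of the 10 named among the 28 lower genes, Ly6c2, a surface antigen of the Ly6 family, had the most UMIs. It stood at 1228 and 499.6 CPM in IgA cells against 5869 and 2272 CPM in the others, a fold of 0.209 (0.201 to 0.218) and 0.220 (0.211 to 0.229). Pld4, an exonuclease, was at 0.122 and 0.145 of its level in other cells, and Scimp, an adaptor of antigen-presenting cells, at 0.109 and 0.222. Napsa, an aspartic protease, was at 0.211 and 0.327, Pon3, a lactonase, at 0.275 and 0.306, and Cyp4f18, a cytochrome P450, at 0.164 and 0.295. Il5ra, the interleukin 5 receptor, was at 0.295 and 0.356, Oosp1 at 0.361 and 0.352, and Upb1, an enzyme of pyrimidine breakdown, at 0.329 and 0.347. Cox4i2, a cytochrome c oxidase subunit, was at 0.0983 (0.0111 to 0.411) and 0.102 (0.0117 to 0.410), on 2 UMIs in IgA cells of each library.

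The arms were drawn from the clusters in unlike shares, with 88.3% and 69.4% of IgA cells and 81.6% and 67.1% of the others in the largest plasma cell-like cluster. Within that cluster alone, 42 genes were past the limit as higher and 29 as lower. Among them were 27 of the 39 higher and 18 of the 28 lower genes. The cluster held most of the cells in which these genes were picked, so their passing there is not separate support. Of the 20 genes named, Samsn1 (6.56-fold and 1.99-fold) and Il5ra (0.542 and 0.275) did not.

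**Figure D5:**
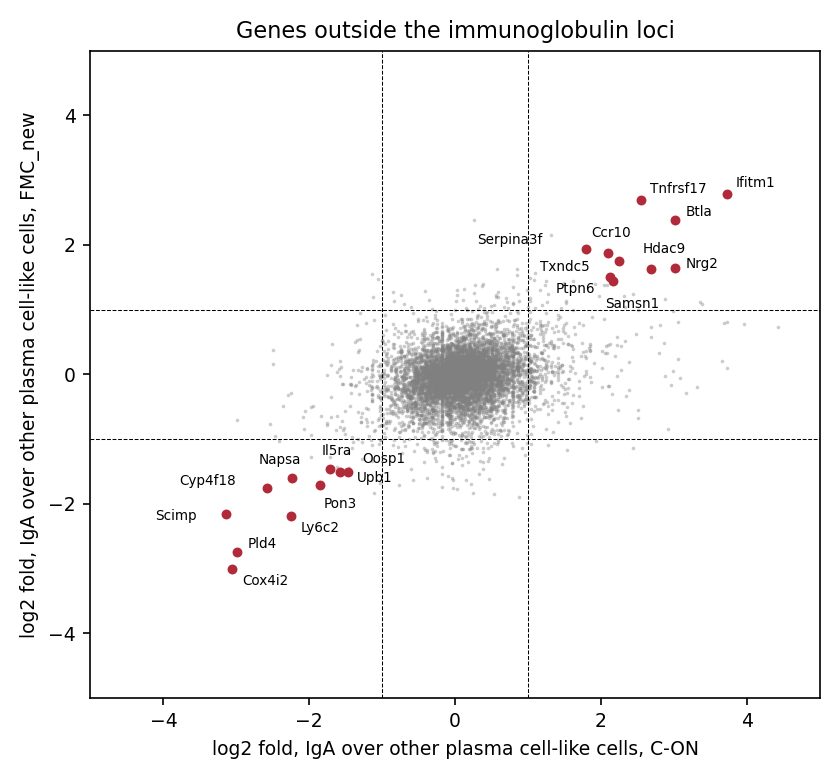
Log2 fold of each of 7782 genes in IgA over other plasma cell-like cells, in C-ON (x axis) and FMC_new (y axis). Dashed lines mark 2-fold, and the named genes, in red, lie beyond them in the same direction in both libraries, such as Tnfrsf17 at 2.55 and 2.70 and Ly6c2 at -2.26 and -2.18.

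Gene lists of the antibody pathway were read in the same comparison. Of 16 plasma cell and secretion genes, all tested, 2 were higher (Tnfrsf17 and Txndc5) and 0 lower, and the median log2 fold was 0.03 and 0.04, near that of all genes. Mzb1, Ssr4 of the translocon, Herpud1 of the disposal of misfolded proteins, and Sec11c of the signal peptidase had the highest levels on the list, with folds of 0.714 and 0.695 for Mzb1, 0.589 and 0.540 for Ssr4, 1.01 and 1.22 for Herpud1 and 0.979 and 1.02 for Sec11c. Of 10 B cell genes 4 had enough UMIs, and Ms4a1, which encodes CD20, was lower in IgA cells (0.458 and 0.280) while Cd79a stood at 0.993 and 0.844. Of 15 homing and survival genes 9 were tested, and Ccr10 was the only member past 2-fold in both libraries. Cd44 and Itga4, adhesion molecules, had folds of 0.966 and 0.844, and of 1.02 and 0.756. Tnfrsf13b, the receptor TACI, had folds of 1.07 and 1.51. Cxcr3, a chemokine receptor, stood at 0.586 and 0.305, so it passed 2-fold in FMC_new but not in C-ON. Of 5 class switching genes, 6 survival factors, 12 immunoglobulin receptors and 6 cell cycle genes, 1, 2, 2 and 1 were tested and none was past 2-fold in both libraries. At least 2 cell cycle genes were found in 1 of 206 and 4 of 451 IgA cells and in 0 of 163 and 7 of 577 IgG cells.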

How the data were processed

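Libraries were made with a 10x 5′ kit with T cell receptor enrichment. The authors aligned reads to mm10 with Cell Ranger (7.2.0 in the processing notes, an earlier version in the study's methods) and deposited whole UMI counts per gene and called barcode, not normalized. Whether intronic reads were counted is not given in the sources used here. From these counts, Seurat 5.3.0 in R 4.3.3 (log normalization to 10000, 2000 variable features without immunoglobulin genes and Jchain, integration of the 2 libraries, 30 components, resolution 0.8) gave 40 clusters. A cluster was named from at least 3 markers found in 20% of its cells at 2 times the mean of the clusters, and 7 clusters (2146 cells) stayed unnamed. Doublets were not removed. Gates, isotypes, intervals (Clopper-Pearson for shares, Poisson for counts) and folds of CPM came from scipy 1.17.1, pandas 2.3.3 and numpy 2.4.6 under Python 3.11.15, and the fold calls were tested on simulated data. Thinning to 1000 UMIs left out 612 cells. Coordinates and sequences come from GENCODE's annotation and transcript sequences for GRCm38. All 10 genes are named, as are, by rule, up to 4 genes of a list, the 3 leading Ighv genes, the 10 genes furthest past the limit in each direction and the 5 most like a member; others are counts of 5 or fewer, chosen after their values were seen. Other clusterings, gates and thresholds were tried. The genes and lists were chosen with earlier results of these data known.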

Additional observations from a re-analysis of the deposited data

Results flagged for a closer look

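Barcodes above the upper limits of 5000 genes or 20000 UMIs were left out of every value above. Among them, 76 of 629 in C-ON (12.1%, 9.64 to 14.9%) and 501 of 1046 in FMC_new (47.9%, 44.8 to 51.0%) carried at least 5 of the 8 plasma cell markers. These barcodes held 143821 and 919157 UMIs of the 10 genes, against 392228 and 871411 in all plasma cell-like cells kept. Of those with a dominant isotype, 32 of 76 (42.1%, 30.9 to 54.0%) and 203 of 496 (40.9%, 36.6 to 45.4%) were IgA. Among kept cells, the gate on plasma cell markers took 340 of 8834 and 902 of 16818 cells, 4.84% over both libraries. By clusters, plasma cell-like cells were 4.54% and 6.52% of the cells kept. The part of depth in these differences was not tested. Whether the barcodes held 1 cell or more was not tested.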

How the results depend on the processing

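Shares were recomputed with other clusterings, gates and thresholds, and moves were read against the SD of the 2 libraries, which is wide and is made from the same values as leaving 1 library out. With oligodendrocyte-like cells taken by a gate on markers, the mean of the 10 genes at 1000 UMIs was 1.498 per cell in place of 0.577. The gate took 6466 and 3723 cells where the clusters gave 5742 and 2261, and the cause was not tested. With no upper limits it was 1.41. With at least 50 UMIs per gene, 44 genes in place of 67 were past 2-fold between IgA and other plasma cell-like cells, since fewer genes were tested. With 1 library left out in turn, plasma cell-like cells were 4.54 to 6.52% of cells and B cell-like cells 0.532 to 1.74%. Likewise, IgA was 43.8 to 55.8%, IgG 44.2 to 56.1%, IgM 0 to 0.0972% and lambda 0 to 2.87%. The 10 genes were then 7.43 to 9.19% of UMIs of plasma cell-like cells, and Ighd cells 6.38 to 8.19% of B cell-like cells. In oligodendrocyte-like cells the 10 genes had 0.240 to 1.44 UMIs per 1000 UMIs. Genes past 2-fold numbered 496 to 572, since 1 library then sufficed. IgG outnumbered IgA over both libraries (52.9 against 47.0%) but not in C-ON alone. With plasma cells taken by a gate on markers the order turned, with IgA at 50.6% and IgG at 49.3%, and with the gate and no upper limits IgA was 47.6%. Settings for the fold comparison and without the shallow cluster were chosen after seeing the data. No paired analysis was possible because both libraries belong to 1 group. Each value rests on 2 libraries, and FMC_new supplied most plasma cells.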

Other observations

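Receptors that bind antibody were read by cell class. Fcer1g, the signalling chain shared by activating Fc receptors, was highest in macrophage-like cells, with a UMI in 96.9% and 98.1% of them. Fcgr3, an activating IgG receptor, was highest in microglia-like cells (74.8% and 80.8% of cells). Fcgr2b, the inhibitory IgG receptor, stood at 407 and 482 CPM in macrophage-like and at 343 and 501 CPM in microglia-like cells, with overlapping intervals in FMC_new. Fcgrt, the neonatal Fc receptor that recycles IgG, was highest in stromal cell-like cells (86.5% and 59.9%). Pigr, which carries polymeric IgA across epithelia and was added to the named genes after its values were seen, gave a single UMI in the class where it was highest in each library.

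Among survival factors of plasma cells, Tnfsf13, which encodes APRIL, and Cxcl12 were highest in stromal cell-like cells, at 58.3 and 74.9 CPM for Tnfsf13, and with Cxcl12 in 46.2% and 31.4% of them. Tnfsf13b, which encodes BAFF, was found in 17.8% and 21.4% of microglia-like and 16.3% and 23.3% of macrophage-like cells, at levels whose intervals overlapped in both libraries.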
